A study of Mus musculus with 12 samples.

Results

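The proteasome is the protease complex that destroys ubiquitin-tagged proteins, and its subunits, activators, assembly chaperones and inhibitor were followed at the RNA level in mouse Th9 cells, the IL-9-producing CD4+ helper T cells. The members were the genes whose symbol begins with *Psm*, then one of the letters a to g, then a digit, with 1 entry per Ensembl gene. This rule matched 56 of the 32051 genes in the expression table. Of these, 35 standard and immunoproteasome core and cap genes, 7 assembly chaperones, 4 activators and 1 inhibitor made up the complex and its partners, 1 was a tissue-specific thymic subunit, and 8 were matched by name but are pseudogenes, gene copies or proteins of another function.

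All libraries came from naive CD4+ T cells isolated from mouse spleens and polarized in culture for 4 days. The medium held TGF-β at 1 ng/mL, IL-4 at 10 ng/mL and neutralizing antibodies to IFN-γ and IL-12 in every group. The study's methods name C57BL/6J or CD45.1+ OT-II transgenic mice as the source of such cells and do not say which were sequenced. The cells received DMSO, the vehicle, in the control group, 10 μM EpA (endomelipeptide A, a cyclic peptide from an endophytic fungus of *Ganoderma lucidum*) in the EpA group, 5 μM fatostatin, an inhibitor of SREBP1, the transcription factor of fatty acid synthesis, in the fatostatin group, or EpA and fatostatin together. Each of the 4 groups had 3 libraries, and the labels give no transgene or deletion for any. The labels do not say whether replicates came from separate mice or cultures, so the p-values measure the spread between these libraries, which may be technical.

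In the proteasome, 2 outer alpha rings and 2 inner beta rings form the barrel-shaped 20S core, whose proteolytic sites lie on 3 of the beta subunits, and the 19S cap recognizes ubiquitin chains and unfolds the substrate with a ring of ATPases. Core and cap together are the 26S proteasome. Immune cells and cells exposed to interferon-γ exchange the catalytic beta subunits for *Psmb8*, *Psmb9* and *Psmb10*, and this immunoproteasome yields peptides suited to MHC class I presentation. In activated T cells, which synthesize proteins at a high rate, the proteasome degrades cell cycle regulators and inhibitors of NF-κB signaling.

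FPKM, the unit of the values, is the number of reads on a gene scaled by its exon length and by the reads of the library. The length is that of all annotated exons of a gene joined, so levels of different genes compare only roughly. *Psmb7*, scaled by 3421 bases, had 4297 to 5657 reads per library, and *Psmb5*, scaled by 899 bases, had 3229 to 3976 reads but the higher FPKM. The libraries held between 36019739 and 43656682 reads on genes, and 1 read on a gene of 1 kb was worth 0.0225 to 0.0273 FPKM. T cell markers (5 of 6 listed genes were in the table, among them *Cd3e* and *Cd4*) summed to 537 to 548 FPKM with DMSO, 477 to 482 with EpA, 527 to 543 with fatostatin and 462 to 466 with both compounds, and none was below a mean of 1 FPKM. B cell markers (4 of 4, 3 of them below a mean of 1 FPKM) summed to 5.97 to 7.88, 5.19 to 6.21, 7.51 to 8.62 and 6.23 to 6.86 FPKM in the same order, and the lists for myeloid, dendritic and NK cells stayed at or under 0.737 FPKM in every library. *Il9* itself was at 51.0 to 57.7 FPKM with DMSO and 620 to 652 with EpA, and at 60.7 to 70.8 with fatostatin and 802 to 855 with both. CD8 T cell markers (2 of 2) summed to 8.71 to 9.79 FPKM with DMSO, 7.85 to 8.57 with EpA, 8.55 to 10.2 with fatostatin and 6.98 to 8.60 with both, and NK cell markers (3 of 3, all below a mean of 1 FPKM) to 0.196 to 0.273, 0.0969 to 0.156, 0.206 to 0.307 and 0.120 to 0.136 FPKM. The T cell and NK cell sums were thus lower in all 6 libraries with EpA than in any other, the CD8 sum was lower with EpA than with DMSO, the B cell sum overlapped between EpA and DMSO, and their part in the results below was not tested. In such bulk samples, fewer cells of a type and less RNA per cell cannot be told apart.

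The levels by family showed which parts of the machine were abundant. The 31 standard 26S subunits (7 alpha, 7 constitutive beta, 6 ATPase and 11 other cap genes) had mean levels of 23.7 to 209 FPKM over the 12 libraries, with a median of 75.7. *Psma6*, an alpha ring subunit, was the highest at 209 FPKM, followed by the cap ATPase *Psmc1* at 169, the ATPase *Psmc5* at 158, the noncatalytic beta subunit *Psmb4* at 155 and the cap scaffold *Psmd2* at 140.1. The lowest standard subunits were the lid subunit *Psmd11* at 23.7 FPKM, the catalytic *Psmb7* at 37.1 and the alpha subunit *Psma3* at 38.5. These subunits occur in equal number in the assembled particle, whereas their RNA levels spanned this range. The part of the annotated exon lengths in this range was not tested. Replicates of a group differed little, with a median coefficient of variation over the 31 genes of 1.48% (EpA) to 2.08% (both compounds) and a highest value of 7.05%.

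The immunoproteasome genes were at 58.3 FPKM (*Psmb8*), 39.0 (*Psmb10*) and 23.6 (*Psmb9*). Of the activators, which open the core from its end without ubiquitin, *Psme3* (PA28γ, a nuclear activator) was at 112, *Psme1* (PA28α) at 110.0, *Psme2* (PA28β) at 81.9 and *Psme4* (PA200) at 20.1 FPKM. Of the chaperones, the 4 core chaperones *Psmg1*, *Psmg2*, *Psmg4* and *Psmg3* were at 42.1, 27.0, 17.8 and 2.93 FPKM, and the 3 cap chaperones *Psmd10* (gankyrin), *Psmd5* and *Psmd9* at 22.3, 10.5 and 4.93. *Psmf1* (PI31), a protein first described as a core inhibitor, was at 8.64 FPKM.

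**Figure D1:**
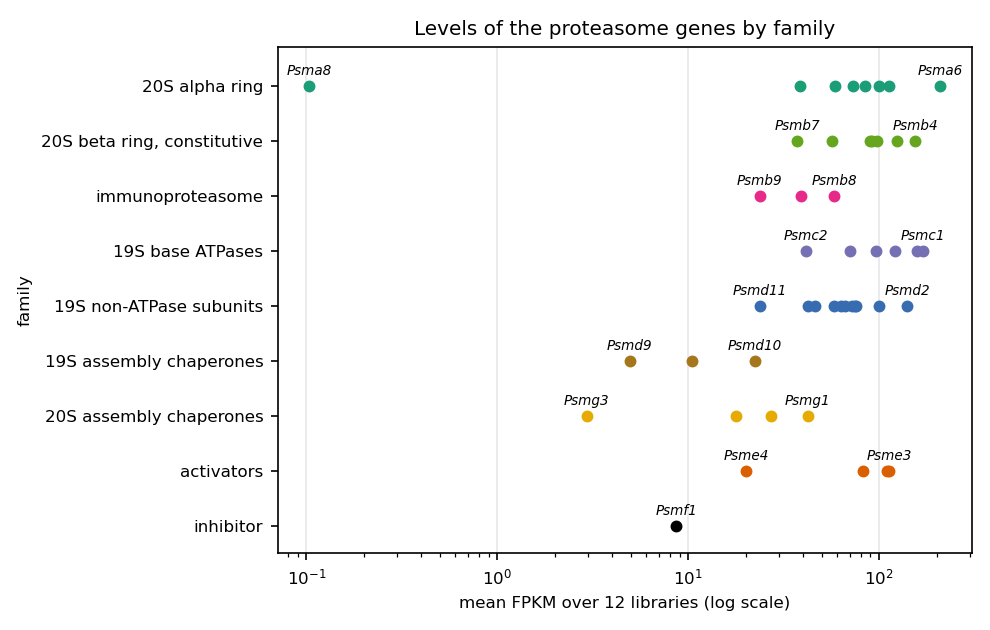
Mean FPKM over the 12 libraries (log axis) of the proteasome genes in 9 families; each point is 1 gene, and the lowest and highest gene of a family are named. The standard core and cap subunits other than *Psma8* lie between 23.7 and 209 FPKM, above the chaperones *Psmd9* and *Psmg3*.

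Tissue-restricted members were near 0. *Psma8*, an alpha subunit of the testis, had a mean of 0.104 FPKM on 4 to 25 reads per library, just inside the minimum of 0.1 FPKM set for testing, and *Psmb6-ps2*, at 0.0831 FPKM on 0 to 6 reads, was just outside it. *Psmb11*, the thymic beta subunit, had 0 to 7 reads, *Psmb7-ps2* and *Psmb6-ps* 0 or 1, and *Psmb5-ps* was at 0 in all 12 libraries. That left 51 of 56 members for testing, among 13733 genes. In 4 of these 51 the name misleads or the reads are shared: *Psmc3ip*, a meiotic recombination factor (10.5 FPKM), *Psme3ip1*, which binds *Psme3* (18.7), *Psma5-ps* (11.5) and *Psme2b* (75.9). *Psme2b* shares 99.4% identity with *Psme2* over 82.5% of the *Psme2* transcript, and *Psma5-ps* shares 98.6% with *Psma5*, so the division of reads within both pairs is uncertain. *Psmb5* has a copy of 98.9% identity (*Gm3375*, 3.76 FPKM) and *Psmd2* a copy of 97.0% (*Gm5422*, 1.505 FPKM).

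The starts of 3 members are shown, chosen for the catalytic neighbors *Psmb9* and *Psmb8* and for *Psmc6*, and were read from RefSeq windows on GRCm38.p6 that run from 250 bases before to 50 bases after a gene's start. *Psmb9* (window chr17:34187281-34187580, minus strand, in a gene annotated at chr17:34181987-34187764) had the largest called fall of all members. *Psmb8* (window chr17:34197945-34198244, plus strand, gene chr17:34197721-34201454) is its neighbor in the MHC locus and was called in no comparison, and *Psmc6* (window chr14:45329574-45329873, plus strand, gene chr14:45329788-45349705) had the largest called rise of the standard subunits. The annotated genes cover the windows of *Psmb9* and *Psmb8*, where the longest first exons hold 5′ UTR, so 30 bases about the motif are shown for these (chr17:34187321-34187350 and chr17:34198088-34198117), and for *Psmc6* the 214 bases before the annotated gene (chr14:45329574-45329787). Capitals mark every match in these bases to 4 motifs sought on both strands: the antioxidant response element TGACNNNGC, the interferon-stimulated response element core GAAANNGAA, the interferon-γ-activated site TTCNNNGAA (the same on either strand), and CCAAT.
Psmb9: gcgcagccgctgATTGGaaagccgagcccc
Psmb8: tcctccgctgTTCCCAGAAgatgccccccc
Psmc6: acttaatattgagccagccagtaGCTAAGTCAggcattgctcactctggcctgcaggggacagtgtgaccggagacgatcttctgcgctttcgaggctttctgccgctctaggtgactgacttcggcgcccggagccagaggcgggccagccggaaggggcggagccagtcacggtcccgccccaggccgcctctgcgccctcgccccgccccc
Each whole window held 1 match, so none overlapped another. The matches were ATTGG, which is CCAAT on the other strand, at bases 243 to 247 of *Psmb9*, the interferon-γ-activated site TTCCCAGAA at bases 154 to 162 of *Psmb8*, and the antioxidant response element GCTAAGTCA at bases 24 to 32 of *Psmc6*. *Psmb9* and *Tap1*, the peptide transporter gene beside it, are transcribed in opposite directions, and their windows share 275 bases (chr17:34187306-34187580). Windows were found for 43 of the 56 members, 47 in all. The antioxidant response element was in 12.8% of them and in 12.4% of 32851 windows of all genes, the interferon-stimulated core in 14.9% and 8.56%, the interferon-γ-activated site in 6.38% and 8.30%, and CCAAT in 34.0% and 37.4%. Of the 7 alpha ring genes with a window, 5 held CCAAT and 0 held any of the other motifs.

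In EpA-Th9 cells, 15 of 31 standard proteasome subunits rose slightly over control Th9 cells, while the immunoproteasome subunit *Psmb9* fell. The rises were led by *Psmd7* and *Psmc6* of the cap, at 14.2% and 13.5%. Of the 51 tested members, 17 (33.3%) were higher and 2 (3.92%) lower in EpA than in DMSO at an adjusted p below 0.05 in limma, against 14.3% and 13.1% of all tested genes. Most members were abundant, and genes at a mean of 10 FPKM or more are the closer background. Of 47 such members 36.2% were higher and 4.26% lower, against 24.1% and 18.8% of the 4717 genes at that level. The changes were small, and 0 members passed 1.5-fold as well (3.38% of all tested genes did). Without DMSO replicate 3 the count of higher members was 11, and the lower members numbered 1 without DMSO replicate 2, DMSO replicate 3 or EpA replicate 1. Without a trend of variance on level in the fit, 11 were higher and 1 lower.

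Among the 31 standard subunits, 15 (48.4%) were higher and 1 (3.23%) was lower with EpA, against 24.1% and 18.8% of all genes at 10 FPKM or more. Their median log2 fold change was 0.076, where the median was 0.0023 over all tested genes and 0.0098 over those at 10 FPKM or more. The median over the same 31 genes, set against the mean of the DMSO libraries, was 0.068, 0.076 and 0.073 in the 3 EpA libraries and between -0.0024 and 0.0017 in the DMSO libraries. Every EpA library therefore lay above every DMSO library in this summary.

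Among the standard subunits, the cap held the largest rises. *Psmd7* was at 95.3, 95.2 and 94.6 FPKM in the DMSO libraries, 104, 111 and 110.4 with EpA, 89.2, 91.2 and 92.4 with fatostatin and 102, 102 and 102 with both compounds. *Psmd7* encodes the lid subunit that pairs with the deubiquitinating enzyme *Psmd14*, and its EpA and DMSO libraries did not overlap (log2 fold change 0.19, SE 0.023, adjusted p = 0.000102 in limma). *Psmc6* was at 66.8, 68.1 and 67.9 FPKM in the DMSO libraries, 75.6, 76.9 and 77.8 with EpA, 63.8, 63.0 and 63.1 with fatostatin and 74.9, 73.5 and 74.1 with both compounds. This ATPase of the base rose by 13.5% with EpA (log2 fold change 0.18, SE 0.017, adjusted p = 1.32e-05), and again all EpA libraries were above all DMSO libraries.

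In the cap as a whole, 3 of 6 ATPases and 7 of 11 other subunits rose with EpA, and 0 fell, where 24.1% of all genes at 10 FPKM or more rose and 18.8% fell. Besides *Psmc6*, the ATPases were *Psmc1* (0.096, adjusted p = 0.00269 in limma) and *Psmc2* (0.075, adjusted p = 0.0205). Beside *Psmd7*, the others were the deubiquitinating enzyme *Psmd14* (0.11, adjusted p = 0.00321), the lid subunits *Psmd11* (0.11), *Psmd12* (0.090), *Psmd8* (0.087) and *Psmd3* (0.080), and the base scaffold *Psmd1* (0.079), with adjusted p of 0.00304, 0.0149, 0.0391, 0.0441 and 0.0451 in the same order. The calls of *Psmd3* and *Psmd1* were lost in 13 and 12 of 22 alternative settings (adjusted p up to 0.161 and 0.127), and that of *Psmd8* in 8 (up to 0.139). The ubiquitin receptor *Psmd4* and the scaffold *Psmd2* had values of 0.016 (adjusted p = 0.678) and 0.022 (adjusted p = 0.307). The exons of *Psmd1* overlap those of *Htr2b* on the other strand over 252 bases, and whether strand was used in counting is not given in the sources used here.

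In the alpha ring, which gates entry to the core, 4 of 8 genes rose with EpA and 1 fell, where 24.1% of all genes at 10 FPKM or more rose and 18.8% fell. *Psma6* was at 212, 199.9 and 200.2 FPKM in the DMSO libraries, 222, 222 and 213 with EpA, 197, 196 and 191 with fatostatin and 219.7, 222 and 218 with both compounds. The 3 EpA libraries were above the 3 DMSO libraries (log2 fold change 0.10, SE 0.026, adjusted p = 0.0137 in limma), and *Psma2* (0.12, adjusted p = 0.00646), *Psma3* (0.10, adjusted p = 0.0255) and *Psma7* (0.097, adjusted p = 0.00994) rose as well. *Psma1* was at 87.5, 88.6 and 88.6 FPKM in the DMSO libraries, 83.2, 86.0 and 85.6 with EpA, 83.9, 84.7 and 85.6 with fatostatin and 79.7, 79.2 and 80.5 with both compounds. This alpha subunit went the other way, with all EpA libraries below all DMSO libraries (log2 fold change -0.055, SE 0.017, adjusted p = 0.0337). *Psma5-ps*, whose reads may be those of *Psma5*, was called higher (0.23, adjusted p = 0.0344), whereas *Psma5* itself had 0.10 (adjusted p = 0.0605). The EpA calls of *Psma1* and *Psma5-ps* were lost in 7 and 9 of 22 alternative settings (adjusted p up to 0.134 and 0.114).

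**Figure D2:**
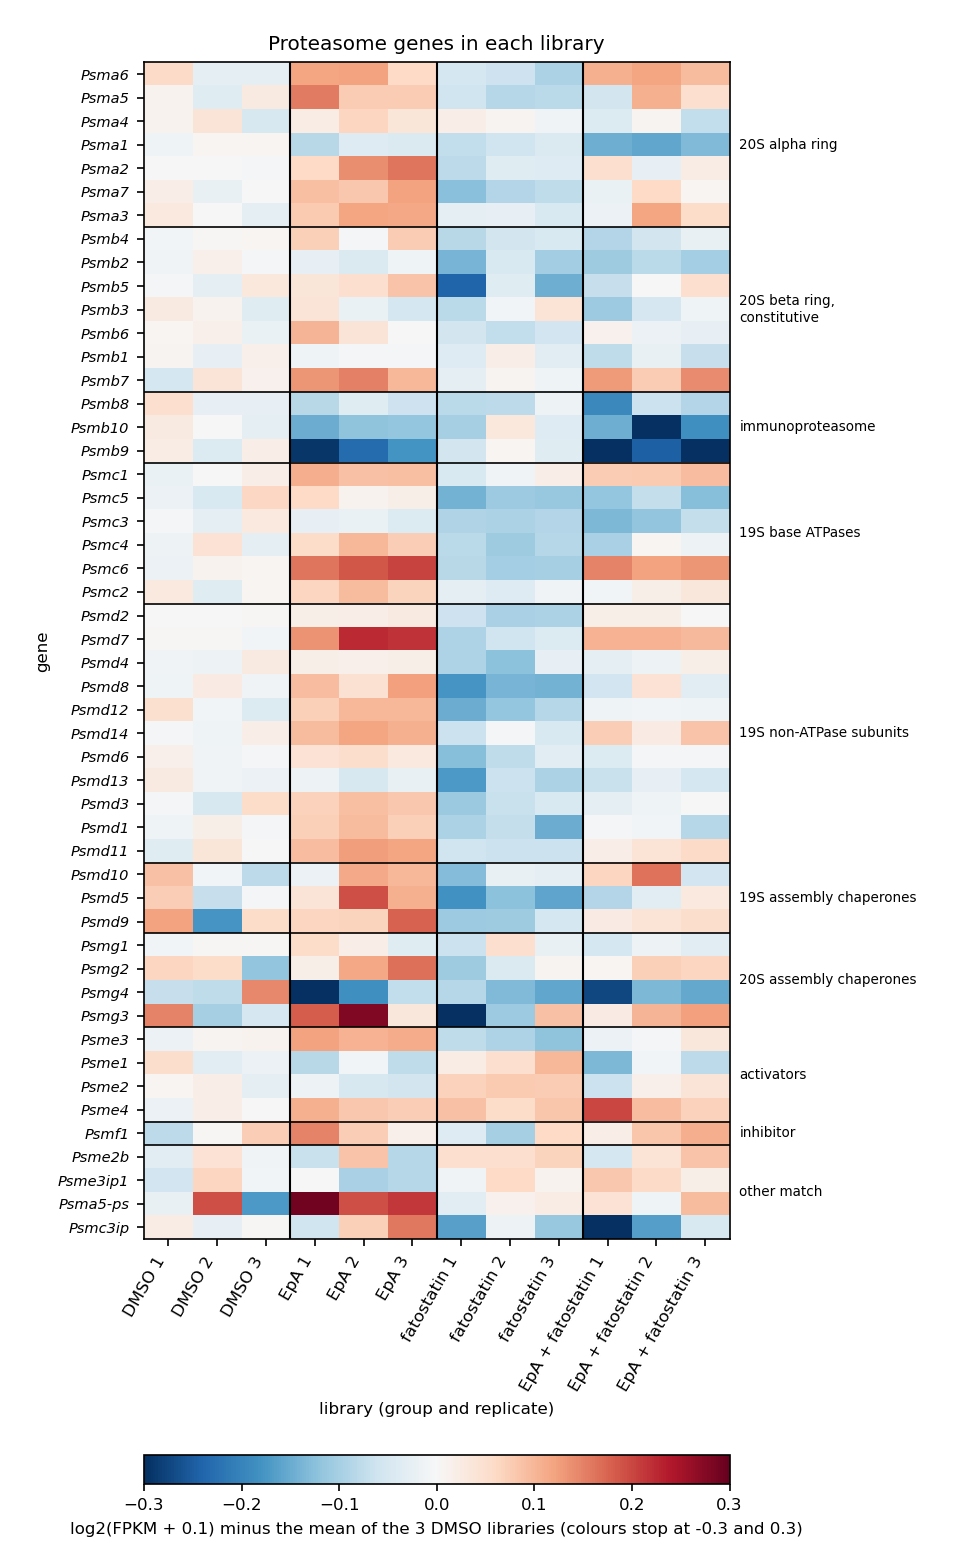
Values of 50 of the 51 tested members (all but *Psma8*) in the 12 libraries, as log2(FPKM + 0.1) minus the mean of the 3 DMSO libraries, grouped by family and ordered by level within a family; colors stop at -0.3 and 0.3. Most rows of the alpha ring and of the cap are red in the EpA libraries and blue in the fatostatin libraries, and *Psmb9* and *Psmb10* are blue in all 6 libraries with EpA.

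Of the 7 genes of the constitutive beta ring, 1 was called higher with EpA, where 24.1% of all genes at 10 FPKM or more were. It was *Psmb7*, the trypsin-like catalytic subunit. *Psmb7* was at 34.3, 36.6 and 36.0 FPKM in the DMSO libraries, 39.0, 39.6 and 38.1 with EpA, 35.0, 35.8 and 35.3 with fatostatin and 38.9, 37.6 and 39.3 with both compounds. The 6 libraries that had received EpA were at or above 37.6 FPKM and the other 6 at or below 36.6, so the groups with and without EpA did not overlap (log2 fold change 0.13, SE 0.027, adjusted p = 0.00473 in limma). Exons of *Psmb7* overlap those of *Nek6* on the other strand over 405 bases.

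The chymotrypsin-like *Psmb5* and the caspase-like *Psmb6* are the other constitutive catalytic subunits. *Psmb5* was at 98.1, 96.5 and 100.5 FPKM in the DMSO libraries, 101, 102 and 104 with EpA, 83.3, 95.9 and 88.8 with fatostatin and 93.8, 98.4 and 102 with both compounds. *Psmb6* was at 90.2, 90.8 and 88.6 FPKM in the DMSO libraries, 96.4, 92.3 and 89.95 with EpA, 86.5, 85.4 and 86.4 with fatostatin and 90.7, 88.8 and 88.4 with both compounds. Neither was called with EpA (0.058, adjusted p = 0.387, and 0.047, adjusted p = 0.175). The structural beta subunits *Psmb1*, *Psmb2*, *Psmb3* and *Psmb4* had log2 fold changes of -0.0073, -0.027, -0.011 and 0.048, and 0 of them were called.

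All 3 immunoproteasome subunits were lower on average with EpA, and *Psmb9*, 1 of 3, passed the test (18.8% of all genes at 10 FPKM or more were called lower). *Psmb9* was at 26.5, 25.3 and 26.4 FPKM in the DMSO libraries, 21.3, 22.2 and 23.0 with EpA, 25.1, 26.2 and 25.4 with fatostatin and 19.98, 21.97 and 20.5 with both compounds. Every library with EpA lay below every library without it (log2 fold change -0.23, SE 0.039, adjusted p = 0.00102 in limma). *Psmb9* fell by 14.97%, and of all 51 members this was the largest called fall. *Psmb10* was at 42.5, 41.7 and 40.9 FPKM in the DMSO libraries, 37.6, 38.3 and 38.5 with EpA, 38.9, 42.6 and 40.6 with fatostatin and 37.6, 32.6 and 36.7 with both compounds. The EpA libraries were below the DMSO libraries, with -0.13 and an adjusted p of 0.0687. *Psmb8* was at 62.8, 59.6 and 59.6 FPKM in the DMSO libraries, 57.3, 59.2 and 58.1 with EpA, 57.3, 57.4 and 59.98 with fatostatin and 53.0, 58.0 and 57.1 with both compounds. *Psmb8* showed -0.060 (adjusted p = 0.241), and its EpA libraries were also below those of DMSO. The exons of *Psmb9* overlap 212 bases of *Tap1* exons on the other strand, of 3660 exon bases in *Psmb9*.

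The proportion of each immune subunit to the constitutive subunit it replaces was lower with EpA. *Psmb9* over *Psmb6* was 0.293, 0.279 and 0.298 in the DMSO libraries and 0.221, 0.240 and 0.256 in the EpA libraries, with means of 0.290 ± 0.0101 and 0.239 ± 0.0177 (SD, n = 3). *Psmb10* over *Psmb7* was 1.24, 1.14 and 1.14 with DMSO and 0.963, 0.968 and 1.01 with EpA. These genes are scaled by exon lengths of 1705 and 3421 bases, so the change of the ratio can be read but not its place about 1. *Psmb8* over *Psmb5* was 0.640, 0.617 and 0.593 with DMSO and 0.568, 0.581 and 0.556 with EpA. None of the 3 ratios overlapped between these groups, and an exact two-sided permutation test of 3 against 3 libraries cannot go below p = 0.1. The ratios reuse the values of the single genes given above, and how often other gene pairs separate in this way was not counted. With fatostatin alone the ratios were 0.297 ± 0.00848, 1.15 ± 0.0386 and 0.654 ± 0.0481 in the same order, and with both compounds 0.233 ± 0.0137, 0.923 ± 0.0502 and 0.572 ± 0.0155. Those of both compounds were below those of fatostatin in every library for all 3 pairs.

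**Figure D3:**
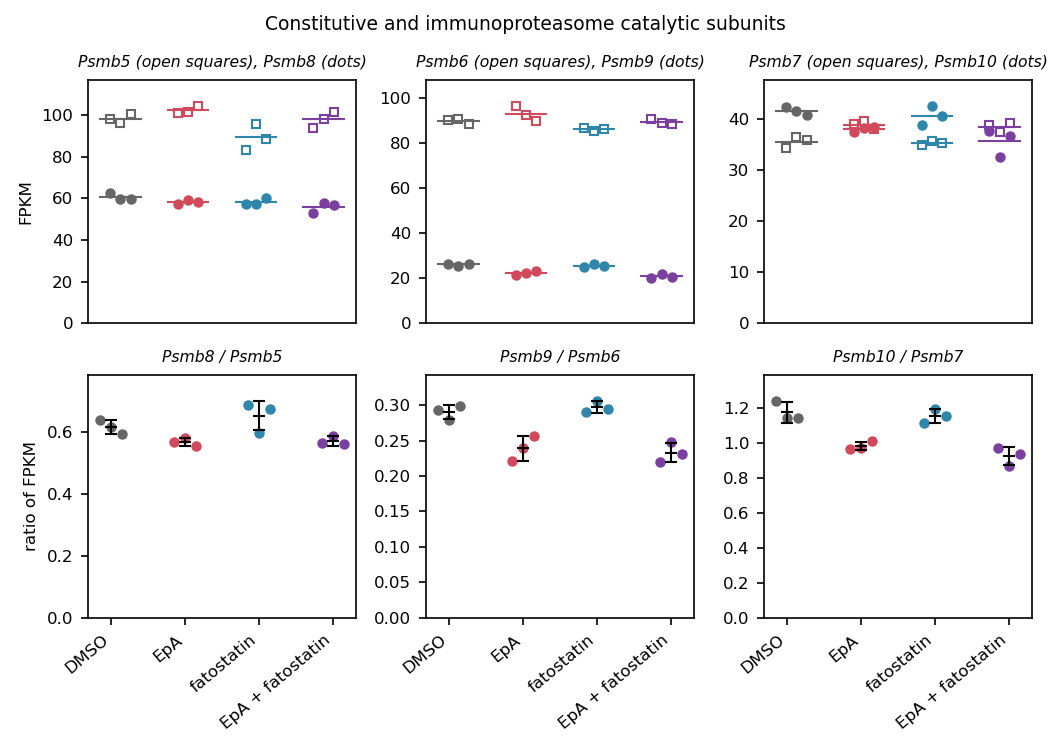
Top row: FPKM of the 3 constitutive catalytic subunits (open squares) and of the immunoproteasome subunits that replace them (dots) in each library, with lines at the group means. Bottom row: the ratio of both in each library, with the mean and SD in black (n = 3); all axes start at 0. For *Psmb9* over *Psmb6*, the 6 libraries with EpA lie between 0.220 and 0.256 and the 6 without it between 0.279 and 0.306.

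Of the activators, 1 of 4 rose with EpA, which is about the 24.1% of all genes at 10 FPKM or more. *Psme3* was at 111, 112 and 113 FPKM in the DMSO libraries, 122, 120.3 and 121 with EpA, 106, 105 and 103 with fatostatin and 110.5, 111 and 114 with both compounds. The EpA libraries of this nuclear activator were above all others (log2 fold change 0.11, SE 0.018, adjusted p = 0.000845 against DMSO in limma). *Psme1* was at 116, 109 and 109.9 FPKM in the DMSO libraries, 105, 111 and 106 with EpA, 113, 115 and 119 with fatostatin and 101, 111 and 105 with both compounds. *Psme2* was at 81.7, 82.6 and 79.9 FPKM in the DMSO libraries, 80.6, 78.8 and 78.3 with EpA, 85.4, 86.0 and 85.8 with fatostatin and 77.9, 82.3 and 83.6 with both compounds. The interferon-inducible pair *Psme1* and *Psme2* had -0.056 (adjusted p = 0.291) and -0.039 (adjusted p = 0.288) with EpA, and their EpA libraries overlapped those of DMSO. *Psme4* was at 19.1 ± 0.237 FPKM with DMSO and 20.3 ± 0.238 with EpA (SD, n = 3, 0.087, adjusted p = 0.0621). The inhibitor *Psmf1* was at 8.45 ± 0.447 and 8.93 ± 0.415 FPKM (adjusted p = 0.308), and 0 of the 7 assembly chaperones were called (14.3% of all tested genes were higher and 13.1% lower), with values from -0.22 (*Psmg4*, adjusted p = 0.0636) to 0.16 (*Psmg3*, adjusted p = 0.295).

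The same question was asked in the presence of fatostatin, by setting both compounds against fatostatin alone. These 6 libraries are separate from the 6 of the comparison of EpA with DMSO. Of the 51 members, 15 (29.4%) were higher and 5 (9.80%) lower with both compounds, against 16.2% and 13.3% of all tested genes. At 10 FPKM or more the shares were 31.9% and 10.6% of members, against 25% and 20.8% of genes, and 0 members passed 1.5-fold (3.75% of genes did). The count of lower members was 3 without fatostatin replicate 3 or without replicate 1 of both compounds, and 3 when only these 2 groups were fitted.

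The direction was the same as without fatostatin for 46 of 51 members (90.2%, where it was the same for 76.7% of all tested genes). Of the higher members, 11 were shared, which is 64.7% of the 17 and 73.3% of the 15: *Psma6*, *Psma7*, *Psmb7*, *Psmc1*, *Psmc6*, *Psmd7*, *Psmd8*, *Psmd11*, *Psmd12*, *Psmd14* and *Psme3*. Of all genes called higher in these comparisons, 76.1% and 67.1% were shared. *Psmc6* had the largest rise (log2 fold change 0.23, SE 0.017, adjusted p = 2.21e-06 in limma), followed by *Psma6* (0.18, adjusted p = 0.000369) and *Psmd7* (0.17, adjusted p = 0.000269). In addition *Psmb5* (0.13, adjusted p = 0.0409), *Psma5* (0.11), *Psmd2* (0.097) and *Psmd4* (0.072) passed here, with adjusted p of 0.0442, 0.000421 and 0.0453 for the last 3. The libraries of *Psmb5* and *Psmd4* overlapped between these groups, and the calls of *Psmb5*, *Psma5* and *Psmd4* were each lost in 14 of 22 alternative settings (adjusted p up to 0.141, 0.160 and 0.166).

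The lower members included both of those found without fatostatin. *Psmb9* fell by 18.5% (log2 fold change -0.30, SE 0.039, adjusted p = 0.000179 in limma), and *Psma1* fell by 5.80% (-0.086, adjusted p = 0.00286). *Psmb10* (-0.19, adjusted p = 0.0107), *Psme1* (-0.13, adjusted p = 0.0180) and *Psme2* (-0.078, adjusted p = 0.0375) were the others, all of them interferon-inducible, and in each the libraries with both compounds lay below those with fatostatin alone. For *Psme2* the near-identical *Psme2b* had -0.031 (adjusted p = 0.662), and the call of *Psme2* was lost in 10 of 22 alternative settings (adjusted p up to 0.110), so it is uncertain.

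**Figure D4:**
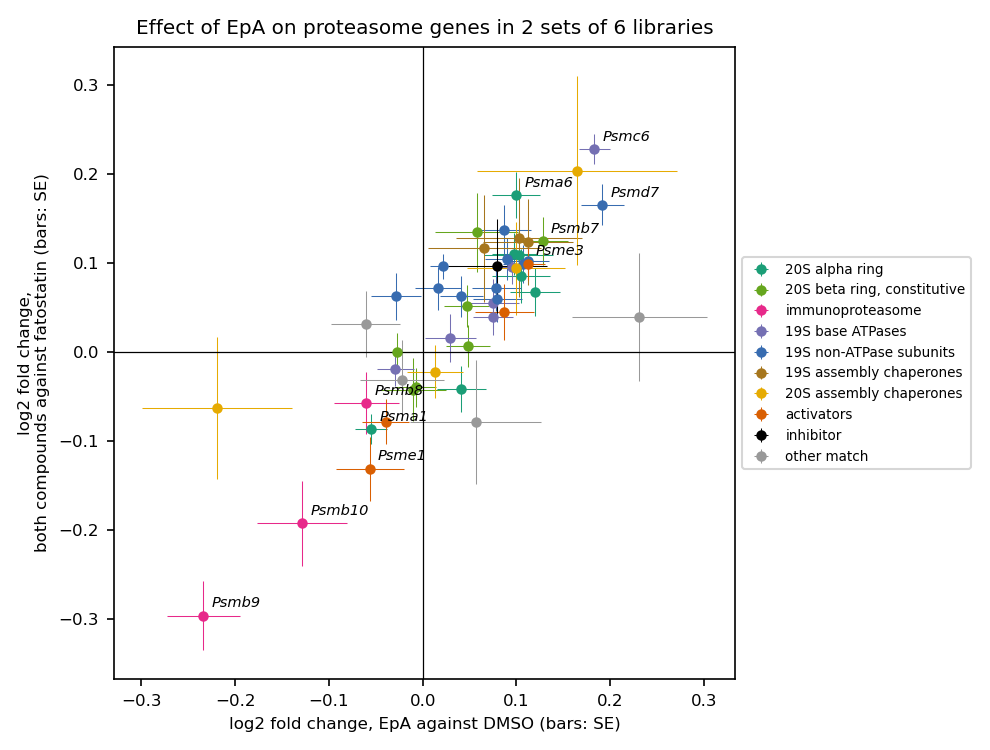
Log2 fold change of 50 members (all tested but *Psma8*) for EpA against DMSO (horizontal) and for both compounds against fatostatin (vertical), with standard errors as bars and families by color; the comparisons share no library. Most standard subunits lie in the upper right, and *Psmb9*, at -0.23 and -0.30, lies lowest in the lower left.

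Whether the effect of EpA depended on fatostatin was tested as an interaction, which was called for 0 of the 51 members in limma, higher or lower, against 0.0364% and 0.00728% of all tested genes, and for 0 with voom on the recovered reads. At an unadjusted p below 0.05 there were 3 of 51 members (5.88%), against 7.89% of all tested genes: *Psmd2* (0.075, SE 0.020, adjusted p = 0.365), *Psmd13* (0.092, SE 0.038, adjusted p = 0.585) and *Psma4* (-0.082, SE 0.037, adjusted p = 0.626). Over the 31 standard subunits the differences ran from -0.082 to 0.092 with a median of -0.0026. Calls made in only 1 of the EpA comparisons are thus not shown to differ between them.

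With fatostatin alone, 13 of 31 standard subunits fell, led by *Psmd8* of the cap lid. In fatostatin against DMSO, 0 members were higher and 14 (27.5%) lower, against 7.69% and 6.31% of all tested genes. Among members at 10 FPKM or more the shares were 0% and 29.8%, against 9.92% and 12.9% of genes, and 0 passed 1.5-fold (1.86% of genes did). Over the 31 standard subunits, of which 0 rose, the median log2 fold change was -0.074, and 30 of the 31 had a negative value. The lower members numbered 9 without DMSO replicate 3, 9 when only these 2 groups were fitted, and 8 without the trend of variance on level.

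Cap genes made up most of the falls, 4 of 6 ATPases and 6 of 11 others, where 12.9% of all genes at 10 FPKM or more fell. *Psmd8* was at 74.9, 76.9 and 75.0 FPKM in the DMSO libraries, 80.7, 78.0 and 82.4 with EpA, 66.9, 68.6 and 68.6 with fatostatin and 72.7, 78.0 and 73.9 with both compounds. The fatostatin libraries of this lid subunit were the lowest of the 12 (log2 fold change -0.15, SE 0.028, adjusted p = 0.00376 in limma). *Psmc5* was at 161, 158 and 170.3 FPKM in the DMSO libraries, 170.0, 164 and 165 with EpA, 148, 151 and 151 with fatostatin and 151, 155 and 149 with both compounds. The ATPase fell by 8.05% with fatostatin alone (adjusted p = 0.0117), with no overlap between the groups. *Psmd2* was at 141, 141 and 141 FPKM in the DMSO libraries, 143, 143 and 144 with EpA, 135, 132 and 132 with fatostatin and 143, 143 and 141 with both compounds. This scaffold, on which ubiquitin receptors and substrates dock, fell by 5.66% (log2 fold change -0.084, SE 0.014, adjusted p = 0.00234), and the fatostatin libraries lay below the other 9.

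The other cap genes lower with fatostatin were *Psmc6* (-0.095, adjusted p = 0.00294), *Psmc3* (-0.090, adjusted p = 0.0102), *Psmc4* (-0.091, adjusted p = 0.0499), *Psmd12* (-0.12, adjusted p = 0.00680), *Psmd13* (-0.11, adjusted p = 0.0168), *Psmd1* (-0.11, adjusted p = 0.0199) and *Psmd6* (-0.080, adjusted p = 0.0387). Exons of *Psmc3* and *Psmd13* overlap those of *Slc39a13* (215 bases) and *Sirt3* (342 bases) on the other strand. In the core, *Psma7* (-0.096, adjusted p = 0.0193), *Psma1* (-0.059, adjusted p = 0.0421) and the beta subunit *Psmb2* (-0.096, adjusted p = 0.0135) were lower. The calls of *Psmc4*, *Psma1* and *Psmd6* with fatostatin were lost in 16, 15 and 14 of 22 alternative settings (adjusted p up to 0.160, 0.129 and 0.125). The activator *Psme3* fell by 6.47% (log2 fold change -0.097, SE 0.018, adjusted p = 0.00425), whereas *Psme1*, *Psme2* and *Psme4* had values of 0.057, 0.074 and 0.075 with adjusted p of 0.356, 0.0762 and 0.153. The immunoproteasome subunits were not called with fatostatin alone, at -0.059 (*Psmb8*), -0.029 (*Psmb9*) and -0.036 (*Psmb10*), and in all 3 the libraries overlapped those of DMSO.

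Added to EpA, fatostatin again lowered 13 of the 31 standard subunits. In both compounds against EpA, which shares no library with fatostatin against DMSO, 0 members were higher and 15 (29.4%) lower, against 9.22% and 6.79% of all tested genes. At 10 FPKM or more the shares were 0% and 31.9% of members against 10.9% and 14.5% of genes, with 0 members past 1.5-fold (1.99% of genes). Of the falls, 9 were shared with fatostatin alone, which is 64.3% of the 14 and 60% of the 15: *Psma1*, *Psma7*, *Psmc3*, *Psmc4*, *Psmc5*, *Psmd1*, *Psmd8*, *Psmd12* and *Psme3*. Of all genes called lower in these comparisons, 62.8% and 58.3% were shared. The sign was the same for 46 of 51 members (90.2%), and for 71.0% of all tested genes. Fewer members were lower without EpA replicate 2 (6), EpA replicate 3 (8), replicate 1 (7) or replicate 3 (9) of both compounds, when only these 2 groups were fitted (8), and without the trend of variance on level (6).

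The largest falls on adding fatostatin to EpA among proteasome subunits were those of *Psmc5* (log2 fold change -0.13, SE 0.027, adjusted p = 0.00597 in limma), *Psmd1* (-0.11, adjusted p = 0.0135), *Psmc4* (-0.11, adjusted p = 0.0181), *Psma2* (-0.10, adjusted p = 0.0228), *Psmb4* (-0.10, adjusted p = 0.0120) and *Psmd8* (-0.10, adjusted p = 0.0290), beside the activator *Psme3* (-0.11, adjusted p = 0.00190). *Psmd7* (-0.090, adjusted p = 0.0211), *Psmd3* (-0.094, adjusted p = 0.0333) and *Psmd11* (-0.072, adjusted p = 0.0481) also passed. *Psmd12* (-0.10), *Psma1* (-0.090), *Psma7* (-0.082) and *Psmc3* (-0.079) completed the list of lower subunits, with adjusted p of 0.0127, 0.00430, 0.0362 and 0.0178. *Psmc3ip*, the recombination factor that only shares the name, had the largest value (-0.23, adjusted p = 0.0431), but its libraries overlapped and 385 of its exon bases overlap *Mlx*. The calls of *Psmd11*, *Psmc3ip* and *Psma7* were lost in 14, 11 and 10 of 22 alternative settings (adjusted p up to 0.140, 0.152 and 0.125), and those of *Psmd3* and *Psmd7* in 7 (up to 0.0986 and 0.0832). *Psma6*, *Psmb7* and *Psmc1*, which rose with EpA, had 0.0068, -0.013 and -0.012 on adding fatostatin, with adjusted p of 0.898, 0.810 and 0.720. None of the immunoproteasome subunits was called (-0.055 for *Psmb8*, -0.091 for *Psmb9*, -0.099 for *Psmb10*, with adjusted p of 0.333, 0.150 and 0.198).

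With both compounds the standard subunits as a whole stood near the control level. Relative to the mean of the DMSO libraries, the median over the 31 genes was -0.027, 0.00033 and 0.0016 in the 3 libraries with both compounds, and it was -0.080, -0.064 and -0.057 in the fatostatin libraries. Single genes departed from this, as *Psmc6* with both compounds (74.9, 73.5 and 74.1 FPKM) was above every DMSO library (66.8, 68.1 and 67.9) and *Psma1* (79.7, 79.2 and 80.5 FPKM) was below every DMSO library (87.5, 88.6 and 88.6). The immunoproteasome median with both compounds was -0.19, -0.25 and -0.18, below that of the EpA libraries at -0.15, -0.12 and -0.12.

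Partners of the proteasome outside the name rule were taken from lists. The lists were chosen with earlier results of these data known, so their counts describe the listed genes and are no test of a list. Of 10 tested maturation factors, ubiquitin receptors and bound enzymes, 5 rose and 0 fell with EpA, 1 rose and 1 fell with fatostatin, 0 rose and 3 fell on adding fatostatin to EpA, and 4 rose and 0 fell on adding EpA to fatostatin. Of all tested genes, 14.3% rose and 13.1% fell with EpA, 7.69% and 6.31% with fatostatin, 9.22% and 6.79% on adding fatostatin to EpA, and 16.2% and 13.3% on adding EpA to fatostatin, so the counts for fatostatin alone were near the background. *Pomp* was at 38.7, 36.9 and 37.7 FPKM in the DMSO libraries, 45.8, 44.97 and 45.01 with EpA, 33.1, 33.1 and 32.8 with fatostatin and 37.5, 39.2 and 37.7 with both compounds. *Pomp*, the maturation protein that brings beta subunits into the core, was called in every one of these comparisons, at 0.26 with EpA alone (adjusted p = 9.27e-06), -0.20 with fatostatin alone (adjusted p = 0.00016), -0.25 when fatostatin was added to EpA (adjusted p = 2.42e-05) and 0.21 when EpA was added to fatostatin (adjusted p = 4.43e-05) in limma. Its 4 groups did not overlap except that those of DMSO and of both compounds did. The deubiquitinating enzymes *Uchl5* and *Usp14* had 0.28 (adjusted p = 2.61e-05) and 0.13 (adjusted p = 0.0355) with EpA, and *Ecpas* and *Txnl1*, which bind the 26S particle, 0.17 (adjusted p = 0.00147) and 0.13 (adjusted p = 0.0193). The ubiquitin receptor *Adrm1* fell on adding fatostatin to EpA (-0.13, adjusted p = 0.0233), and the ligase *Ube3c* rose with fatostatin alone (0.11, adjusted p = 0.0466), a call lost in 16 of 22 alternative settings (adjusted p up to 0.159). That of *Usp14* with EpA was lost in 7 (up to 0.124).

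Of 10 tested shuttle factors and segregase genes, which carry or extract ubiquitinated proteins, 4 rose with EpA and 4 on adding EpA to fatostatin, 1 rose with fatostatin in either setting and 0 fell in any. Among all tested genes at 10 FPKM or more, 24.1% rose and 18.8% fell with EpA, 25% and 20.8% on adding EpA to fatostatin, 9.92% and 12.9% with fatostatin and 10.9% and 14.5% on adding fatostatin to EpA, so 1 of 10 higher with fatostatin is at the background. The 4 were the shuttles *Ubqln4* (0.19 with EpA, adjusted p = 5.6e-05), *Ubqln1* (0.14, adjusted p = 0.00145) and *Rad23b* (0.11, adjusted p = 0.00318), and the segregase cofactor *Faf1*, which rose with EpA (0.099, adjusted p = 0.0433) and with fatostatin (0.16, adjusted p = 0.00646). The call of *Faf1* with EpA was lost in 13 of 22 alternative settings (adjusted p up to 0.130). Of 6 ubiquitin and E1 genes, the activating enzymes *Uba1* (0.073, adjusted p = 0.0140) and *Uba6* (0.18, adjusted p = 0.0163) rose with EpA, and both rose on adding EpA to fatostatin, against the same background shares. The polyubiquitin gene *Ubb* fell on adding fatostatin to EpA (-0.21, adjusted p = 6.19e-05) and on adding EpA to fatostatin (-0.11, adjusted p = 0.00236), and 0 of the 6 were called with fatostatin alone, where 7.69% of all tested genes were higher and 6.31% lower.

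Of 9 tested regulators of subunit transcription, 5 rose and 1 fell with EpA, against 14.3% and 13.1% of all tested genes. *Nfe2l1* (NRF1), the factor that induces subunits when proteasome activity is short, was at 17.3 ± 0.517, 18.7 ± 0.348, 16.1 ± 0.394 and 17.2 ± 0.780 FPKM (mean ± SD, n = 3) with DMSO, EpA, fatostatin and both (0.12 with EpA, adjusted p = 0.0321, and -0.12 on adding fatostatin to EpA, adjusted p = 0.0403). *Nfe2l2* (NRF2), which acts through the antioxidant response element, was 0.099 with EpA (adjusted p = 0.0414) and -0.13 with fatostatin (adjusted p = 0.0165). The call of *Nfe2l1* on adding fatostatin to EpA and that of *Nfe2l2* with EpA were lost in 12 and 13 of 22 alternative settings (adjusted p up to 0.135 and 0.154), and that of *Nfe2l1* with EpA in 7 (up to 0.116). Their small partners *Maff* (0.53, adjusted p = 0.00599) and *Mafg* (0.13, adjusted p = 0.0207) and the factor *Stat3* (0.15, adjusted p = 0.000339) rose with EpA. *Ngly1*, the enzyme that removes sugars from NRF1 on its way to activation, fell with EpA (-0.20, adjusted p = 0.00447). Against fatostatin, both compounds gave 3 higher (*Maff*, *Mafg*, *Stat3*) and 1 lower (*Ngly1*), fatostatin alone gave 0 higher and 1 lower, and adding fatostatin to EpA 0 higher and 2 lower. The shares of all tested genes were 16.2% higher and 13.3% lower, 7.69% and 6.31%, and 9.22% and 6.79% in the same order.

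Among interferon-linked factors and peptide loading genes, which serve the same pathway as the immunoproteasome, 11 fell with EpA. Of 18 tested, 1 was higher and 11 were lower with EpA, with a median log2 fold change of -0.19, against 14.3% and 13.1% of all tested genes. The genes of this list, too, were chosen with earlier results of these data known, so these counts are a description and no test of the list. On adding EpA to fatostatin 0 were higher and 12 lower (median -0.19), against 16.2% and 13.3%. With fatostatin alone 6 were higher and 1 lower (median 0.082), against 7.69% and 6.31% of all tested genes. On adding fatostatin to EpA 7 were higher and 2 lower (median 0.080), against 9.22% and 6.79%. Of these lower calls, that of *Ifng* was lost in 17 of 22 alternative settings (adjusted p up to 0.155 in limma).

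The transactivator of MHC class I genes, *Nlrc5*, showed the largest called change of this list with EpA alone and with fatostatin alone. *Nlrc5* was at 6.27, 6.403 and 6.82 FPKM in the DMSO libraries, 4.53, 4.26 and 4.29 with EpA, 9.27, 8.79 and 8.85 with fatostatin and 6.41, 6.33 and 6.13 with both compounds. Its log2 fold changes were -0.56 with EpA alone (adjusted p = 3.02e-06), 0.46 with fatostatin alone (adjusted p = 2.5e-05), 0.52 when fatostatin was added to EpA (adjusted p = 8.69e-06) and -0.50 when EpA was added to fatostatin (adjusted p = 5.66e-06) in limma, and the EpA and fatostatin libraries overlapped no other group. *Tap1* was at 36.4, 35.1 and 35.7 FPKM in the DMSO libraries, 28.5, 28.1 and 28.5 with EpA, 38.7, 39.5 and 38.5 with fatostatin and 30.1, 31.8 and 32.2 with both compounds. *Tap1*, whose RefSeq window overlaps that of *Psmb9*, changed by -0.33 with EpA alone (adjusted p = 4.39e-06), 0.12 with fatostatin alone (adjusted p = 0.00866), 0.15 when fatostatin was added to EpA (adjusted p = 0.00297) and -0.31 when EpA was added to fatostatin (adjusted p = 6.07e-06). The fall with EpA was thus seen in both neighbors, while the rise with fatostatin was called for *Tap1* (0.12) and *Psmb9* had -0.029.

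*Tap2*, the partner of *Tap1* in the transporter, had -0.19 with EpA (adjusted p = 0.000265) and 0.16 with fatostatin (adjusted p = 0.00190). *Tapbp*, which tethers the transporter to MHC class I, had -0.29 (adjusted p = 6.72e-05) and 0.13 (adjusted p = 0.0201), and the interferon regulatory factor *Irf1* -0.32 (adjusted p = 4.47e-05) and 0.18 (adjusted p = 0.00432), in the same order. *Ifng* itself was low, at 2.20 ± 0.292 FPKM with DMSO, 1.76 ± 0.334 with EpA, 2.46 ± 0.140 with fatostatin and 1.30 ± 0.0464 with both (mean ± SD, n = 3), and it fell on adding EpA to fatostatin (-0.86, adjusted p = 0.000297). *Ifngr1*, the receptor chain that binds interferon-γ, fell with EpA (-0.28, adjusted p = 6.79e-05), and *Ifngr2*, its signaling partner, was the 1 gene of the list that rose (0.14, adjusted p = 0.0144). The interaction of EpA and fatostatin was called for 0 genes of these 5 lists in limma.

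**Figure D5:**
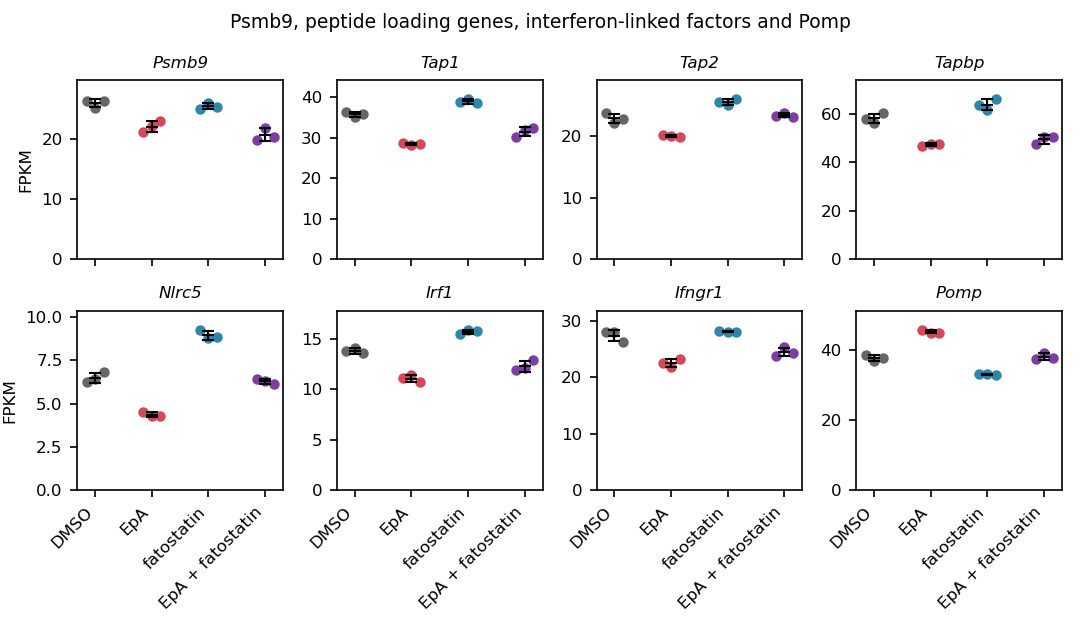
FPKM in each library (colored points) of *Psmb9*, the peptide loading genes *Tap1*, *Tap2* and *Tapbp*, the factors *Nlrc5* and *Irf1*, the interferon-γ receptor chain *Ifngr1*, and the maturation protein *Pomp*, with mean and SD in black (n = 3) and axes that start at 0. The EpA libraries lie below the DMSO libraries in all panels but that of *Pomp*, where they lie above.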

How the data were processed

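RNA-seq was measured in 12 libraries, 3 in each of 4 groups. The authors used Trim Galore for trimming, HISAT2 for alignment (GRCm38) and featureCounts for counting, and they deposited FPKM, reads scaled by exon length and library reads. The annotation release and the strand setting are not given in the sources used here. Of 32352 lines, 301 repeated a gene with identical values and 1 line per gene was kept. Gene positions and exon lengths came from GENCODE vM21 on GRCm38. With these lengths, between 98.4% and 98.6% of a library's values were whole reads within 0.05. Libraries held 36019739 to 43656682 reads on genes.

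Values were transformed to log2(FPKM + 0.1), so fold changes of low genes are understated. The 13733 genes averaging 0.1 FPKM or more were tested in 1 fit of the 4 group means with limma 3.58.1 in R 4.3.3, with an intensity trend, two-sided p-values and Benjamini-Hochberg adjustment over all tested genes. Calls required an adjusted p below 0.05. A 1.5-fold threshold was applied as an alternative, as were other pseudocounts, filters and scalings, a replicate block, voom on the recovered reads and each library left out in turn. The fit was also run on simulated counts with the same setting of spread for all genes, and its outcome is not reported here.

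Members, families and gene lists were chosen with earlier results of these data known. Named with values were the catalytic pairs, the activators, the inhibitor, the 8 called members with the largest change in each direction of a comparison, the 3 highest and 3 lowest of each family, the members under the filter, and at most 4 called genes per list and comparison. Other members and list genes, with the 3 members named for the interaction, were chosen after seeing their values. Gene copies were sought with blastn 2.17.0 at 90% identity over 50% of a transcript. Promoter windows are those of RefSeq. For 1 gene counted in the list of interferon-linked genes, the values are not reported here.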

Additional observations from a re-analysis of the deposited data

How the results depend on the processing

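The counts of called members kept within 1.5 times of those reported under pseudocounts of 1 and 0.01, no filter, a minimum of 1 FPKM and median ratio scaling. With TPM scaling 1 member was higher with fatostatin, and with voom 1 was higher on adding fatostatin to EpA. Without an intensity trend the counts were 11 higher and 1 lower with EpA, 8 lower with fatostatin and 6 lower on adding fatostatin to EpA. Fitting only the groups compared gave 9 lower with fatostatin, 8 lower on adding fatostatin to EpA and 3 lower on adding EpA to fatostatin, and it could not be fitted for the difference. At 1.5-fold every count was 0. The cause was not tested. Leaving out 1 library at a time gave 11 to 19 higher and 1 to 3 lower with EpA (11 higher without DMSO replicate 3), 0 to 2 higher (2 without replicate 1 of both compounds) and 9 to 14 lower with fatostatin (9 without DMSO replicate 3), 0 to 1 higher and 6 to 15 lower on adding fatostatin to EpA (1 higher without DMSO replicate 2 or EpA replicate 1, and 6 lower without EpA replicate 2), and 12 to 16 higher and 3 to 5 lower on adding EpA to fatostatin. Uncalled log2 fold changes whose sign turned when a library was left out ranged, with fatostatin alone, over -0.037 to 0.0095 for *Psmb7* and -0.070 to 0.010 for *Psmf1*, and on adding fatostatin to EpA over -0.027 to 0.0063 for *Psmb7*, -0.041 to 0.025 for *Psmf1*, -0.050 to 0.014 for *Psme1* and -0.0071 to 0.059 for *Psme4*. Over all single-library omissions, 1950 values kept direction and side of the threshold, 264 lost a call and 9 gained one. Calls lost in 5 or 6 of 22 alternative settings were those of *Psma3* and *Psma6* with EpA, *Psmd1* and *Tapbp* with fatostatin, and *Psma2*, *Psmc3*, *Psmd8* and *Ifngr1* on adding fatostatin to EpA. Across the deposited values, TPM and median ratio scaling and voom, the median log2 fold change of all genes ran from -0.00018 to 0.0037 with EpA. It ran from 0.0053 to 0.011 with fatostatin, from 0.0093 to 0.024 on adding fatostatin to EpA, and from 0.0016 to 0.015 on adding EpA to fatostatin.

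Same-numbered libraries of different groups correlated at -0.0881 to 0.113 after group means were removed (18 pairs, 1 of them over 0.1), and 4 of 12 libraries correlated best with their own number. No pairing by number was thus seen, but same-numbered libraries may still share a mouse or culture, which the labels do not give. With the replicate block the counts were 16 higher and 3 lower with EpA, 15 lower with fatostatin, 15 lower on adding fatostatin to EpA, and 15 higher and 4 lower on adding EpA to fatostatin, with 0 for the difference. The 31 standard subunits rested on at least 3229 reads in every library, whereas *Psma8* had 4 to 25.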
